A study of Homo sapiens with 3 samples.

Results

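The genes described here were 34 classical cell cycle genes, taken by symbol from the 33538 features of 3 single-cell libraries of human blood vessel organoids. They comprised 15 S phase members, from MCM2 to GINS2, and 19 G2/M members, from MKI67 to KIF20A, and all 34 symbols were found. Their source was the human embryonic stem cell line H1, carrying a PiggyBac insert from which doxycycline switches on NEUROD1, a proneural transcription factor, joined to GFP by a P2A peptide. All 3 groups carried this cassette, were collected at day 45 of culture and had the neurotrophins BDNF and NT-3 in the medium from day 15. They differed in doxycycline at 1 µg/ml, which was absent (no induction) or given for 15 days or for 45 days, and which 15 days these were is not stated in the labels. A library came from a pool of 5 to 6 organoids taken apart with papain. Each group is therefore 1 library of pooled organoids, differences between groups have no replicate check, and every interval below covers counting error only (95%).

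The libraries held 10232 barcodes with no induction, 5962 at 15 days and 10765 at 45 days, and 8133, 5050 and 8813 cells were kept. The kept cells held 50294131, 44816214 and 54343786 UMIs, with median depths of 5137, 7296 and 5551 UMIs per cell. At most 24 kept barcodes were shared by any 2 libraries. NEUROD1 stood at 1.53 CPM (UMI counts scaled to the library's total) with no induction, 1.47 CPM at 15 days and 42.7 CPM at 45 days, so only the 45-day library was above the uninduced one at collection. Reads of the cassette and of the cell's own gene cannot be told apart here. Of the vascular cell types that the label implies, an endothelial-like cluster met 11 of 12 endothelial markers and a mural-like cluster met 8 of 13 mural markers. Neuron-like clusters, meeting 15 and 14 of 15 neuron markers, held 0 cells with no induction, 298 at 15 days and 306 at 45 days. In the GENCODE v29 basic annotation 10 members share exon bases with a gene on the other strand, among them TYMS, RRM1, MCM7 and PLK1, and RRM2 and NUSAP1 with one on the same strand. Whether the counting used strand is not given in the sources used here, so the values of these genes could hold reads of their neighbours.

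A dividing cell copies its genome in S phase and separates the copies in mitosis, and it makes many of the proteins for each step only shortly before they are used. S phase genes encode the machinery that licenses and fires replication origins and supplies nucleotides, and their transcription is driven by E2F factors as the retinoblastoma protein is inactivated. G2/M genes encode the cyclin B kinase, spindle motors, chromosomal passenger proteins and the machinery that destroys cyclins, and they are switched on later through the MuvB complex with B-MYB and FOXM1. That complex reads the cell cycle genes homology region (CHR), often beside CCAAT boxes bound by NF-Y. Neurons are postmitotic, so they are the cell type in which both programs are known to be shut.

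The promoters of both sets are printed because their letters follow the split into S and G2/M members, a property the choice of members did not use. Of the 34 members, 28 (13 S and 15 G2/M members) had an entry in the RefSeq promoter table (GRCh38.p14), which gives 250 bases before and 50 after the start; MCM4, MCM5, UBE2C, BIRC5, TPX2 and AURKA are named only. Below are the 125 bases before the start of 4 G2/M and 3 S members, 5′ to 3′ on the gene's own strand, with capitals for a match on either strand. The CHR was searched as TTTGAA. The NF-Y box was searched as CCAAT. An E2F site was either of a pair of spellings, of which the first was TTCCCGC. The second spelling of the E2F site was TTGGCGC. The window of CCNB2 lies at chr15:59105021-59105145 (plus), PLK1 at chr16:23678764-23678888 (plus), CDC20 at chr1:43358856-43358980 (plus) and HMMR at chr5:163460507-163460631 (plus). CDT1 lies at chr16:88803664-88803788 (plus), GINS2 at chr16:85688955-85689079 (minus) and MCM3 at chr6:52284743-52284867 (minus).
CCNB2: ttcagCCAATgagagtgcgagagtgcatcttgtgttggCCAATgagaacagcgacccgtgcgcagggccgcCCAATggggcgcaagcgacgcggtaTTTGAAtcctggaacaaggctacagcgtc
PLK1: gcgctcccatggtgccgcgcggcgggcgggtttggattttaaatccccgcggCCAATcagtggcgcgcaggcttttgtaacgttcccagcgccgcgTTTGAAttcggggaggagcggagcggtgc
CDC20: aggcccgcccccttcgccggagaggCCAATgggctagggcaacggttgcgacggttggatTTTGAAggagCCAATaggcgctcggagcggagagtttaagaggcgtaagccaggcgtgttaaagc
HMMR: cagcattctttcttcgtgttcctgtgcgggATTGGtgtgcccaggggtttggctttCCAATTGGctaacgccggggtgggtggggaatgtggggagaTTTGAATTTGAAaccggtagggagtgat
CDT1: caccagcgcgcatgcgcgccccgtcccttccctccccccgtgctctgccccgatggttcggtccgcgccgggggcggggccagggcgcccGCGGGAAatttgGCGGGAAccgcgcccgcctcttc
GINS2: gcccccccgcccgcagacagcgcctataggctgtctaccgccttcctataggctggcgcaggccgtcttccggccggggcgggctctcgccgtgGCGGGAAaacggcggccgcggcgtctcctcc
MCM3: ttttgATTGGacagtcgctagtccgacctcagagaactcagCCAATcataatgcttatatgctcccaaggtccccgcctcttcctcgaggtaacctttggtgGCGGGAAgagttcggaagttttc
In CCNB2 and HMMR a CHR stands close to the start with CCAAT boxes before it, in PLK1 with a single one, and in CDC20 the CHR stands between CCAAT boxes. HMMR holds a pair of CHRs that follow each other directly, and its CCAAT match overlaps a match on the other strand. CDT1, GINS2 and MCM3 hold an E2F site near the start, beginning between 35 and 23 bases before it, and no CHR.

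Over all matched members, a CHR was found in 10 of 15 G2/M windows and 1 of 13 S windows, against 15.2% of all 35116 promoter windows of the same length. An E2F site was found in 11 of 13 S windows and 2 of 15 G2/M windows, against 9.23% of all windows. CCAAT boxes did not separate the sets: 15 of 15 G2/M and 10 of 13 S windows had one, against 34.6% of all. RRM1 was the S member with a CHR, and CDK1 and NUSAP1 were the G2/M members with an E2F site. The median match began 29 bases before the start for the CHR of G2/M members and 37 bases before it for the E2F site of S members. The letters of the motifs were chosen after other spellings had been counted in these windows, so the counts are a description, and a match is neither a bound site nor a cause.

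**Figure D1:**
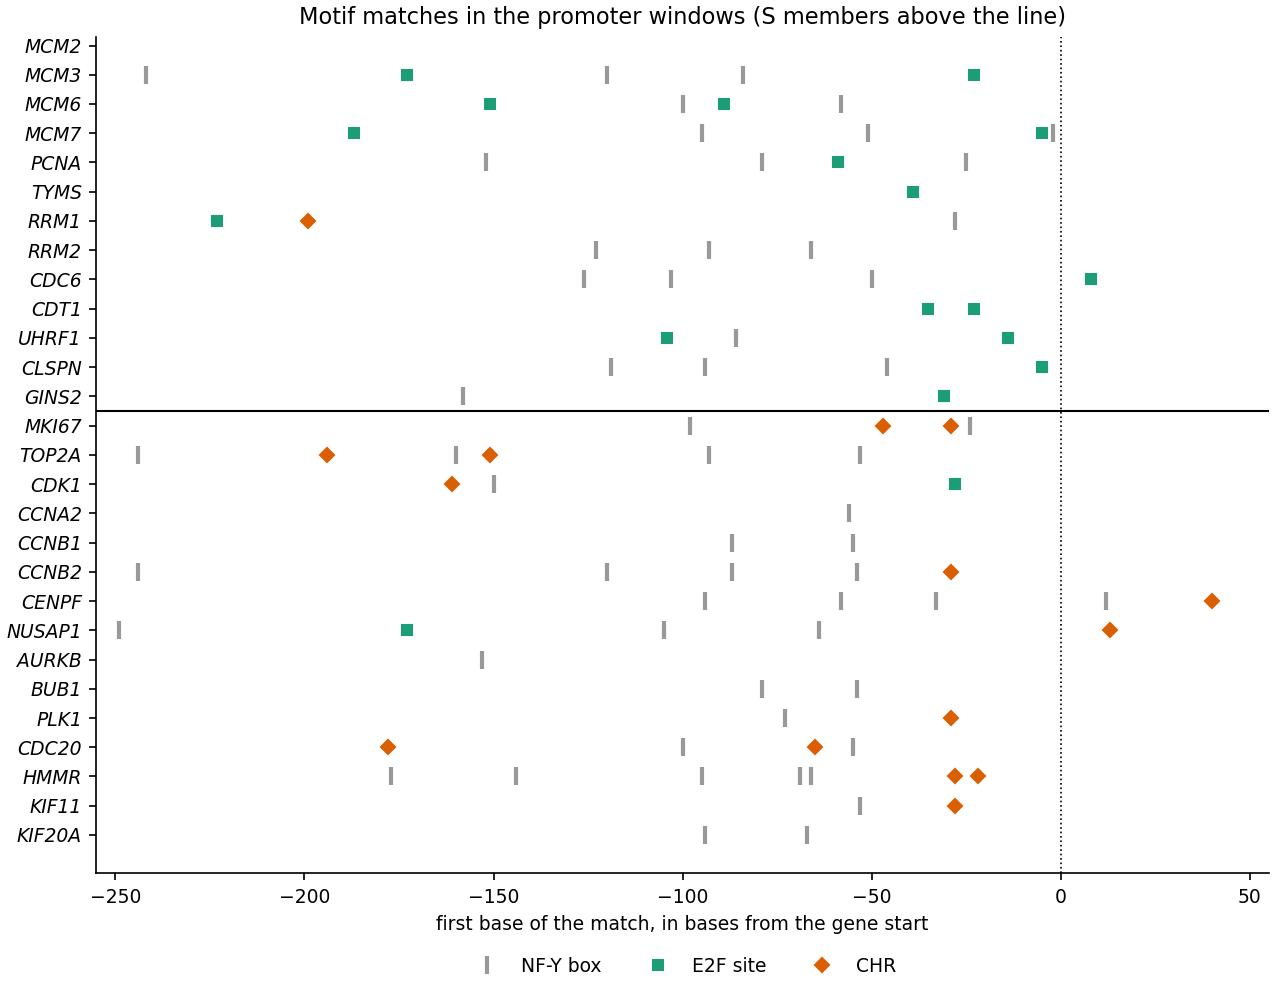
Motif matches in the promoter windows of 28 members. The horizontal axis is the first base of each match in bases from the gene start (dotted line); grey bars are CCAAT (NF-Y) boxes, green squares E2F sites and orange diamonds CHRs. E2F sites lie mostly above the line, in S members, and CHRs below it, in G2/M members.

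Summed over all kept cells, the members were lowest in the 15-day library. The 15 S members together stood at 471 CPM in the uninduced library, 405 CPM after 15 days and 469 CPM after 45 days of doxycycline. The 19 G2/M members stood at 871, 673 and 822 CPM. As log2 ratios, the S sum at 15 days was −0.22 against no induction (−0.24 to −0.19) and the G2/M sum was −0.37 (−0.39 to −0.35), while the median gene was at 0.25. At 45 days the same ratios were −0.00 (−0.03 to 0.02) and −0.08 (−0.10 to −0.06), with the median gene at 0.17. Member by member, 15 days had the lowest of the 3 values for 13 of 15 S members and 18 of 19 G2/M members, the exceptions being MCM4, MCM7 and MKI67. In such sums fewer dividing cells and less RNA per dividing cell, among others, cannot be told apart. Shares of called cells, levels within cells called by these same members, and sums without neuron-like cells are given further on.

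Among the S members, MCM2, a subunit of the replicative helicase, stood at 15.6 CPM with no induction, 14.5 CPM at 15 days and 16.3 CPM at 45 days. Its values were close, with overlapping counting intervals for no induction and both induced libraries. PCNA, the sliding clamp of DNA polymerase, stood at 56.8, 42.0 and 49.2 CPM. TYMS, which makes thymidylate for DNA, was the most abundant S member at 86.0, 66.3 and 77.8 CPM. Both were highest without induction and lowest at 15 days. RRM2, the regulated subunit of ribonucleotide reductase, was the S member furthest below its uninduced level at 15 days. It stood at 25.4, 16.7 and 18.5 CPM, 1.52-fold lower at 15 days than with no induction (1.39 to 1.67). Its partner RRM1 stood at 36.4, 34.2 and 36.5 CPM, so its levels lay closer together than those of RRM2. UHRF1, which recruits the maintenance DNA methyltransferase, stood at 13.4, 9.64 and 14.4 CPM and had the largest difference of any member between the induced libraries, a log2 ratio of 0.58.

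By total UMIs 2 helicase subunits, MCM7 and MCM4, were highest at 45 days and lowest with no induction, an order that the scaling described below turns at 15 days. MCM7 stood at 46.6, 51.3 and 60.3 CPM in the order uninduced, 15 days, 45 days, with the highest log2 ratio of any member at 45 days (0.37). MCM4 stood at 18.8, 19.9 and 22.0 CPM. CDT1, which loads the helicase onto origins, stood at 35.4, 33.3 and 42.5 CPM and was highest at 45 days as well. The other helicase subunit MCM6 varied little, at 22.1, 21 and 21.4 CPM. The S members not yet given (MCM3, MCM5, CDC6, CLSPN and GINS2) had log2 ratios at 15 days from −0.49 for GINS2, a part of the active helicase, to −0.06 for MCM3.

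Of the G2/M members, CDK1, the kinase that drives mitotic entry, stood at 73.9 CPM with no induction, 46.4 CPM at 15 days and 55 CPM at 45 days. It was 1.59-fold lower at 15 days than with no induction (1.51 to 1.68), the largest difference of any member in that comparison. Its partner CCNB1, cyclin B1, stood at 50.5, 35.3 and 41.6 CPM, and NUSAP1, a spindle microtubule protein, at 58.5, 38.5 and 54.3 CPM. TOP2A, the topoisomerase that untangles sister chromatids and the most abundant member, stood at 133, 101 and 123 CPM. UBE2C, the ubiquitin-conjugating enzyme of the anaphase-promoting complex, stood at 111, 82.3 and 110.4 CPM, and CDC20, an activator of that complex, at 30.0, 25.2 and 30.6 CPM. These members were lowest at 15 days. At 45 days CDK1 and CCNB1 had log2 ratios to no induction of −0.43 and −0.28, and the other 4 lay between −0.11 (TOP2A) and 0.03 (CDC20). MKI67, the Ki-67 proliferation marker, did not follow them: it stood at 40.3, 42.0 and 43.4 CPM, and its log2 ratios to no induction were 0.06 and 0.11. The other 12 G2/M members lay between −0.48 (CCNB2, cyclin B2) and −0.10 (PLK1, the polo-like kinase of mitotic entry) at 15 days, and between −0.28 (HMMR) and 0.16 (AURKB, the kinase of the chromosomal passenger complex) at 45 days.

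By size, 3 of 34 members (RRM2, CDK1 and NUSAP1) were at least 1.5-fold lower at 15 days than with no induction and 0 at least 1.5-fold higher; over 13476 genes with 200 UMIs or more in the 2 libraries, 3.62% were lower and 19.3% higher by that much. At 45 days against no induction 0 members passed in either direction, where 5.62% of genes were lower and 11.9% higher. At 45 against 15 days 0 members passed, where 11.3% of genes were lower and 1.76% higher, although all 34 ratios were above 0 (0.03 for MCM6 and CLSPN to 0.58 for UHRF1). The scaling bears on these counts. Dividing by the median of ratios over genes in place of total UMIs shifted all log2 ratios at 15 days by −0.25, at 45 days by −0.17 and at 45 against 15 days by 0.08. With it, 16 members were at least 1.5-fold lower at 15 days, where 7.01% of genes were, and 2 at 45 days, where 7.87% were. At 45 against 15 days 1 was higher, where 2.35% of genes were. The shift puts the 15-day ratios of MCM7 and MCM4, both ratios of MKI67 and the 45-day ratios of MCM3 and AURKB below 0, and leaves MCM7, MCM4 and CDT1 above 0 at 45 days. Without neuron-like cells the 15-day sums were at −0.11 (S) and −0.21 (G2/M), and 0 members were at least 1.5-fold lower. The share over all genes without these cells is not given, so that count has no background beside it.

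**Figure D2:**
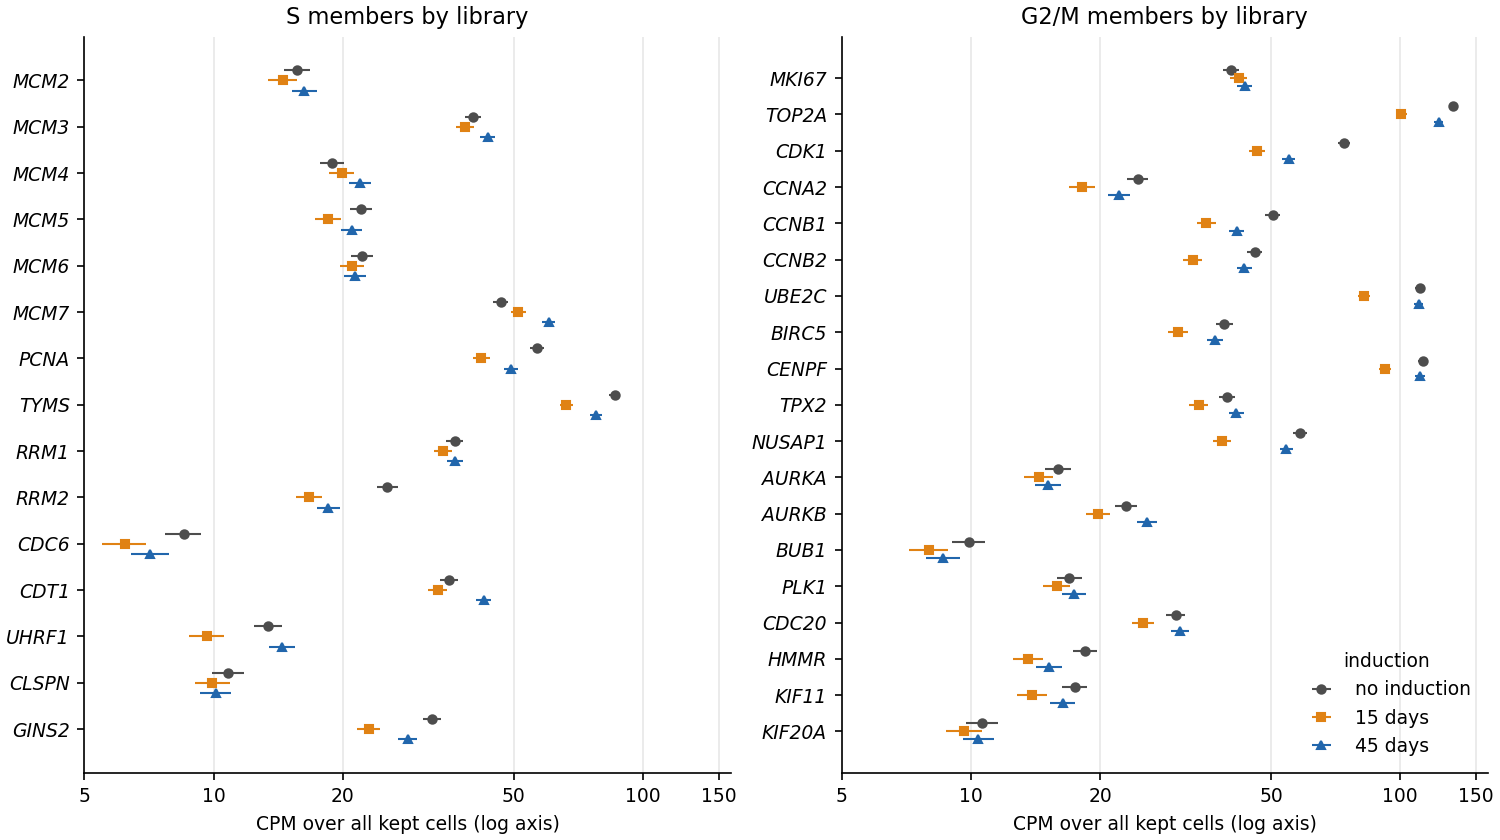
CPM of each member over all kept cells of a library, on a log axis, with exact Poisson intervals; S members left, G2/M members right. Black circles are no induction, orange squares 15 days and blue triangles 45 days. Most orange squares are the leftmost of the 3 symbols; by total UMIs, the scale of this plot, MCM7, MCM4 and MKI67 are the rows where they are not.

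Genes that act before and around these members were read from lists of named genes. Of 26 other replication genes 0 were at least 1.5-fold apart in any of the 3 comparisons; at 15 days their log2 ratios ran from −0.56 for PRIM1, the primase subunit, to 0.22 for ORC6, a subunit of the origin recognition complex. Of 40 other G2 and mitosis genes 3 were lower and 0 higher at 15 days, led by the mitotic kinases PBK (−0.71) and TTK (−0.69), and 0 were lower or higher at 45 days. Over all genes, 3.62% were lower and 19.3% higher by 1.5-fold at 15 days, and 5.62% and 11.9% at 45 days. At 45 against 15 days the shares were 11.3% and 1.76%. E2F7, an atypical E2F that represses S phase genes, was lower by more than any member, at 4.65 CPM with no induction, 1.94 CPM at 15 days and 2.37 CPM at 45 days. Among the G1 genes CCND1, cyclin D1, stood at 127 CPM without doxycycline, 194 CPM at 15 days and 169 CPM at 45 days.

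Inhibitors of cyclin-dependent kinases were led by CDKN2D, the INK4 protein p19, at 16.5 CPM with no induction, 71.4 CPM at 15 days and 39.9 CPM at 45 days. Neuron-like cells held 66.9% of its UMIs at 15 days and 42.3% at 45 days, at 409 and 311 CPM, against 14.9 to 20.4 CPM in mesenchymal-like cells of the 3 libraries. CDKN2A, another INK4 inhibitor, stood at 10.8, 27.7 and 11.1 CPM, and 76.9% of its 15-day UMIs were in mesenchymal-like cells. It was a leading gene of mesenchymal-like cluster 9, which held more cells at 15 days (654) than with no induction (114), and it shares its locus with an antisense gene. CDKN1A, the p53 target p21, stood at 15.3, 21.9 and 16.8 CPM, and CDKN1C, p57, at 264, 230.0 and 250.4 CPM.

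To place the members in cells, each cell was thinned to 2000 UMIs, leaving out 341, 272 and 487 shallower cells. A cell was called G2/M when it held UMIs of 3 or more different G2/M members, and S when it held 3 or more S members and fewer G2/M members than that. Cells called S made up 4.71% (4.25 to 5.20) of the uninduced, 3.01% (2.55 to 3.54) of the 15-day and 3.90% (3.50 to 4.34) of the 45-day library. Cells called G2/M made up 9.30% (8.67 to 9.97), 7.26% (6.54 to 8.03) and 7.18% (6.64 to 7.76). In sum 14.0%, 10.3% and 11.1% of cells were called, the uninduced library being highest and the induced libraries close to each other. Without thinning, the shares called at full depth in these cells were 24.8%, 25.7% and 23.6%, and the order was not kept. The calls leave out cells with few UMIs of members: 51.8%, 58.1% and 51.8% of the thinned cells had no UMI of any member.

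The level of the members within called cells, which were called by these genes, is given as a description. In cells called G2/M the 19 G2/M members summed to 6033 CPM with no induction, 5925 CPM at 15 days and 6617 CPM at 45 days. Cells called neither held 98.8, 76.3 and 93.7 CPM. The S members summed to 2064, 1931 and 2107 CPM in cells called S, and to 1372, 1593 and 1584 CPM in cells called G2/M. Of cells called G2/M, 38.8%, 50.7% and 44.5% also held 3 or more S members, so the G2/M call takes in cells that carry both sets. Called cells were deeper than others before thinning: the median was 7650, 11164 and 9486 UMIs in G2/M cells against 5024, 7279 and 5508 UMIs in cells called neither. Of cells removed as likely doublets, 23.7%, 17.0% and 20.4% met a call. The part of either in the shares was not tested.

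The members differed in how tightly they kept to the called cells. To keep a member from counting towards its own call, each member was left out of the calls in turn, over the 3 libraries together. For G2/M members 8.63% (KIF20A, a kinesin of cytokinesis) to 29.5% (CCNB2, cyclin B2) of UMIs then fell in cells called neither, with a median of 13.9%. For S members the range was 15.3% (RRM2) to 68.6% (MCM6), with a median of 49.7%. The helicase subunits MCM2, MCM3, MCM5, MCM6 and MCM7, together with PCNA and RRM1, had more than 50% of their UMIs in cells called neither. PLK1, CDC20 and KIF20A, which act from mitotic entry to exit, had a mean level 62.2, 24.1 and 21.7 times higher in G2/M cells than in S cells, whereas CDK1 and KIF11 had ratios of 4.62 and 5.23. The first 3 ratios rest on few UMIs in S cells. These cells held 0.682% of 440 PLK1, 1.79% of 894 CDC20 and 2.08% of 336 KIF20A UMIs. RRM2 stood out among the S members: 73.8% of its UMIs fell in G2/M cells, a mean 3.34 times that of S cells, and it was higher in G2/M cells in each of the 3 libraries (2.95, 3.57 and 3.88 times). TYMS, CDT1 and RRM1 had ratios of 1.22, 1.23 and 1.09, and the other 11 S members were below 1.

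**Figure D3:**
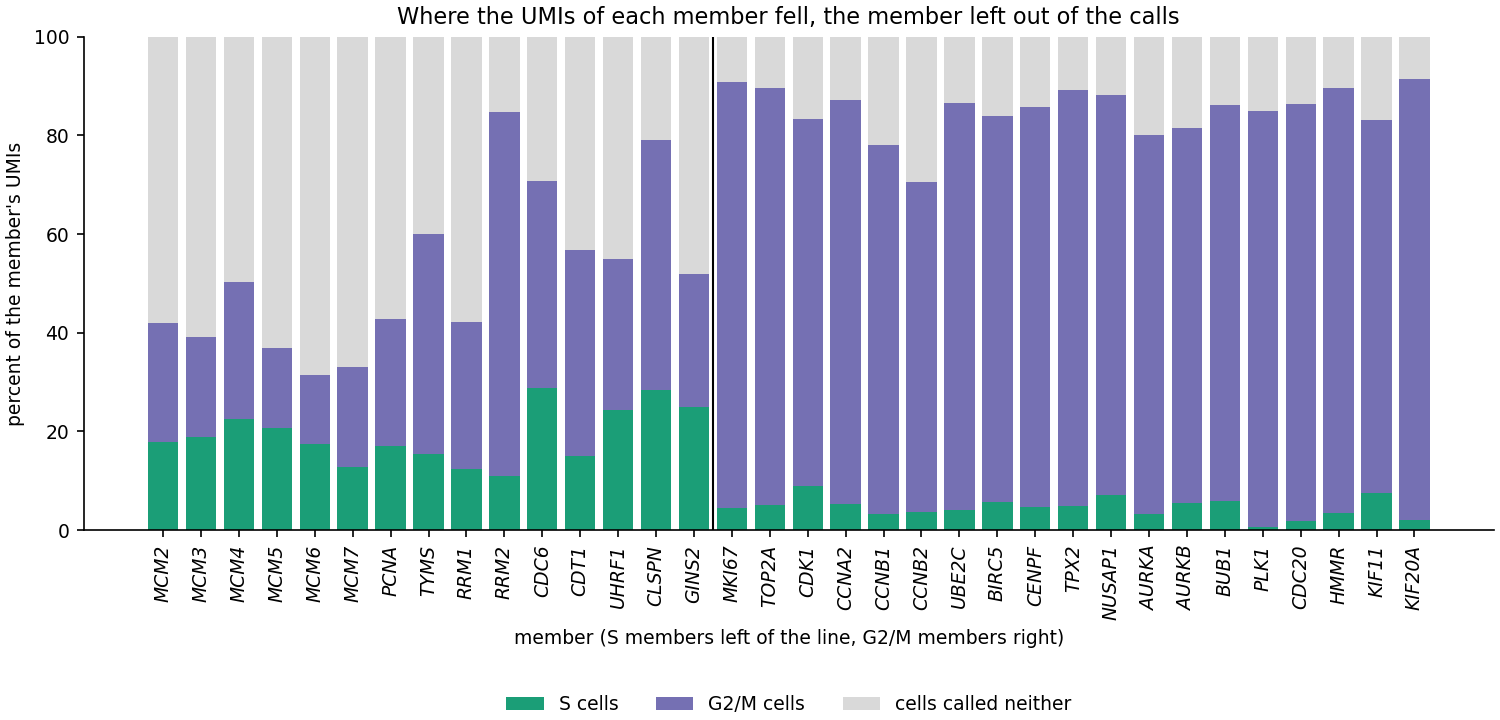
Stacked bars give, for each member, the percent of its UMIs that fell in cells called S (green), G2/M (purple) or neither (grey), over the 3 libraries thinned to 2000 UMIs and with that member left out of the calls. Grey is under 30 percent in the G2/M members and reaches 68.6% in MCM6, while the bar of RRM2 resembles those right of the line.

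Cell classes were rebuilt by clustering without 953 cell cycle genes, so that dividing cells stay with their type, and no cluster was led by members. Epithelial-like cells with no induction had the highest share of called cells of any class in any library, 23.5% (19.6 to 27.8), against 11.2% (7.39 to 16.1) at 15 days and 13.0% (10.1 to 16.4) at 45 days. Mural-like cells, named for pericyte and smooth muscle markers, were at 13.7% (11.3 to 16.4), 10.6% (8.48 to 13.1) and 9.63% (7.78 to 11.8). Called and uncalled mural-like cells alike held a median of 2 of 13 mural and 4 of 15 mesenchymal markers. Mesenchymal-like cells were at 12%, 10.5% and 11.5%, although different clusters made up this class: cluster 6 was its largest with no induction, cluster 9 at 15 days and cluster 12 at 45 days. By S and G2/M calls together, endothelial-like cells were the lowest of these 4 classes. They were at 5.08% (3.17 to 7.67), 6.33% (3.86 to 9.71) and 8.02% (4.56 to 12.9), with wide overlap. By S calls alone they were lowest with no induction (11 of 413 cells) and at 15 days (6 of 300). At 45 days they were not: 8 of 187 were called S, against 26 of 893 mural-like and 243 of 6186 mesenchymal-like cells. Their S sum at 45 days, 435 CPM, lay above mural-like (404) and epithelial-like (412) and below mesenchymal-like cells (505). A single endothelial-like cell held 18.1% of the UMIs in that sum. Under 11 ways of calling or clustering, endothelial-like cells were lowest by both calls together in 11, 10 and 10. Epithelial-like cells with no induction were the highest class in 10. The exceptions were calls without thinning at 15 days (epithelial-like lowest), doublets kept at 45 days (mural-like lowest) and cycle genes kept in the clustering (mural-like highest). Median depth before thinning was 7444 UMIs in uninduced endothelial-like and 7662 UMIs in uninduced epithelial-like cells.

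**Figure D4:**
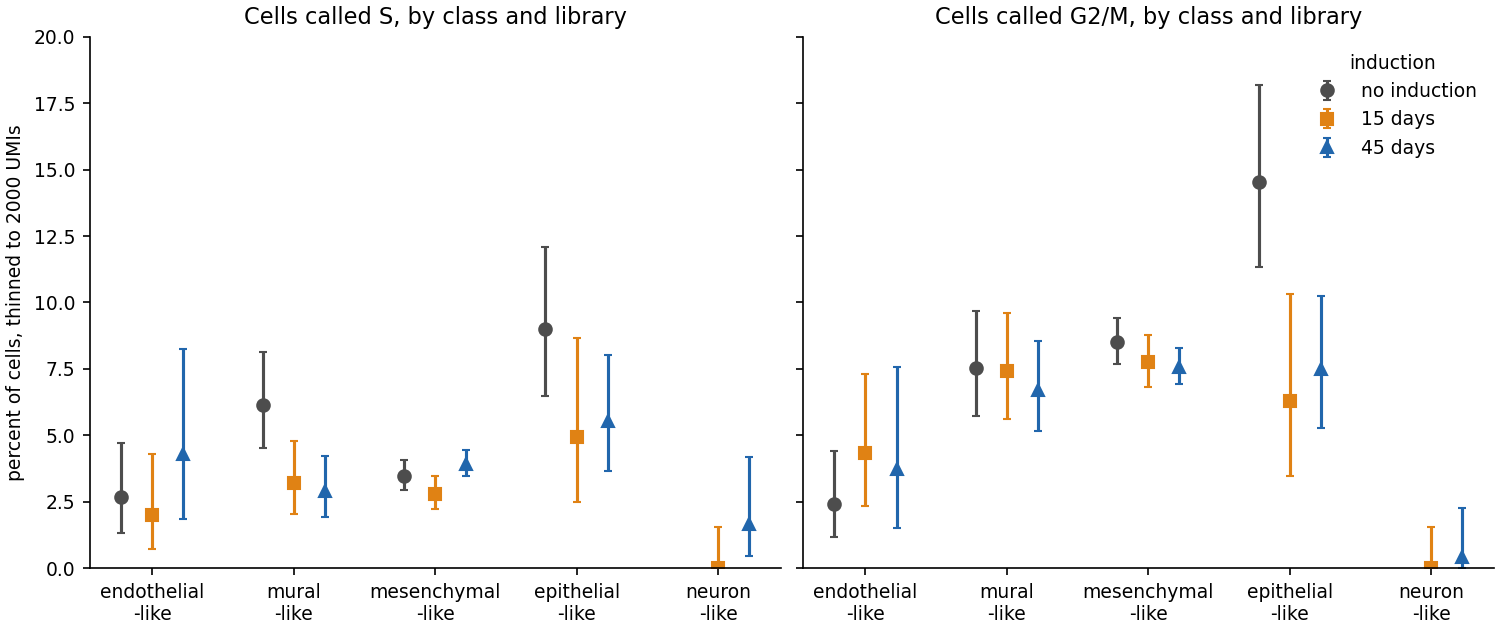
Percent of cells called S (left) and G2/M (right) after thinning to 2000 UMIs, by class and library, with exact binomial intervals. Uninduced epithelial-like cells stand highest in both panels and neuron-like cells, absent without induction, lie at or near 0.

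In epithelial-like cells, whose clusters were led by keratins, both sets of members were highest with no induction, and the S members differed most. Their sum was 702 CPM with no induction, 324 CPM at 15 days and 412 CPM at 45 days. PCNA stood at 104 (94.9 to 114), 39.6 (31.2 to 49.5) and 46.5 CPM (39.5 to 54.3), and TYMS at 122 (112 to 133), 42.7 (34 to 52.9) and 62.7 CPM (54.5 to 71.7). Neither gene's uninduced interval overlapped an induced one, but these intervals treat UMIs of the same cell as independent. By thinned cells with a UMI, PCNA was at 12.2% (9.28 to 15.7), 6.73% (3.81 to 10.9) and 7.05% (4.90 to 9.76), with overlap. TYMS was at 15.0% (11.8 to 18.7), 6.28% (3.47 to 10.3) and 9.19% (6.73 to 12.2), with overlap at 45 days. The helicase subunit MCM2 was at 24.6, 8.23 and 12.1 CPM, in the same order. All 15 S members were below their uninduced level at 15 days, with log2 ratios from −1.71 (CDC6) to −0.59 (MCM7), and at 45 days, from −1.41 (RRM2) to −0.23 (CDT1), where the median gene of the class was at −0.00 and 0.01. No share of members past 1.5-fold is given for this class, since the S members that reached 200 UMIs did so mainly through the uninduced library.

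The G2/M members of epithelial-like cells summed to 1027, 727 and 1014 CPM. At 15 days 16 of 19 were below their uninduced level, CDK1 furthest at 45.8 against 95.8 CPM, and at 45 days 12 of 19 were. TOP2A stood at 136, 91.0 and 152 CPM, and UBE2C at 129, 104 and 148 CPM, so at 45 days G2/M members were near their uninduced levels while S members were not. Few cells carried the 15-day G2/M sum: 3 cells held 50% of its UMIs, against 16 cells with no induction and 9 at 45 days. The makeup of the class differed between libraries. Cluster 0, led by KRT15, KRT17 and KRT5, had 27.4% of cells called with no induction, 11.1% at 15 days and 13.0% at 45 days. Cluster 14, led by GABRP, S100A9 and SPRR3, had 20.6% of 248 cells (15.7 to 26.1), 12.5% of 24 cells (2.66 to 32.4) and 13.2% of 76 cells (6.49 to 22.9) called. Cluster 14 thus held most epithelial-like cells with no induction and few at 15 days. The direction was the same in each cluster, but the intervals of cluster 14 overlapped.

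Endothelial-like cells showed the opposite order for the G2/M members, which summed to 309 CPM with no induction, 550.0 CPM at 15 days and 313 CPM at 45 days. TOP2A stood at 46.0, 89.9 and 44.4 CPM and MKI67 at 20.7, 38.3 and 21.9 CPM, each highest at 15 days. The S members summed to 316, 335 and 435 CPM. At 15 days 18 of 19 G2/M members were above their uninduced level, and the log2 ratios ran from −0.06 (KIF11) to 1.44 (AURKB), on few UMIs per member. The median gene of the class was at 0.08. Cells called G2/M numbered 10 of 413, 13 of 300 and 7 of 187, and 5, 6 and 3 cells held 50% of the G2/M UMIs of the class. A single cell held 27.5% of them at 45 days. Of the S UMIs of the class, 23, 17 and 9 cells held 50%, and a single cell held 18.1% at 45 days. The sums of both sets thus rest on few cells.

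In mural-like cells both sets were highest without induction and lowest at 45 days: the S members summed to 498, 438 and 404 CPM and the G2/M members to 632, 610.0 and 532 CPM. Cells called S made up 6.16% (4.53 to 8.15) of the uninduced, 3.22% (2.05 to 4.79) of the 15-day and 2.91% (1.91 to 4.24) of the 45-day mural-like cells. Cells called G2/M made up 7.52%, 7.42% and 6.72%. With classes taken from each cell's own markers the mural order differed, with 9.09% in the uninduced library, the lowest of the 3. Of 11 S and 12 G2/M members with 200 UMIs, 0 were at least 1.5-fold apart at 15 or 45 days, where 2.04% and 2.06% of mural genes were lower and 9.13% and 9.82% higher.

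Mesenchymal-like cells held 45.1% of called cells with no induction, 63.1% at 15 days and 77.1% at 45 days. In the same order they were 52.7%, 61.5% and 74.3% of all thinned cells. Cluster 2, which met 6 of 15 mesenchymal markers but was given no class name, is not counted here. It held 33.8%, 3.46% and 4.01% of called cells. Its S members summed to 562, 841 and 569 CPM and its G2/M members to 1148, 874 and 707 CPM. The S members of mesenchymal-like cells summed to 416 CPM with no induction, 445 CPM at 15 days and 505 CPM at 45 days, and their G2/M members to 879.8, 789 and 939 CPM. MCM7 alone of 34 members was 1.5-fold or more above its uninduced level at 45 days, with 66.4 against 42.9 CPM, where 10.8% of 11707 genes were higher, and 0 were lower, where 4.54% were. The 45-day S ratio of 0.28 lay close to the median gene of the class, at 0.20.

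The class was far from even. Cluster 12, a mesenchymal-like group led by LHX9, HOXD13 and HOXA13, had the highest called share of any cluster, 31% (25.6 to 36.9) in the uninduced, 30.8% (18.7 to 45.1) in the 15-day and 25.5% (23.4 to 27.7) in the 45-day library. Its G2/M members summed to 2202, 3200 and 1923 CPM. At 45 days this cluster was 19.5% of cells and 44.9% of called cells, and it held 46.9% of the library's G2/M UMIs and 39.4% of its S UMIs. With no induction it was 3.52% of cells and 7.78% of called cells. There cluster 2, led by PTX3, FOXF2 and DKK2 and given no class name, took the place: it was 25.7% of cells and 33.8% of called cells, with 18.4% of its cells called, against 23.9% of 71 cells at 15 days and 14.1% of 263 cells at 45 days.

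At the low end, cluster 8, led by hypoxia-response genes such as ANKRD37, VEGFA and P4HA1, had 4.23%, 3.66% and 2.05% of cells called. Cluster 9, led by CDKN2A among others, had 5.41%, 7.68% and 2.95%. Cluster 10, led by HAND1 and FOXF1, was at 18.8% and 17.9% and then at 9.12% at 45 days, and cluster 6, led by TCF21, was at 13.6%, 9.90% and 5.64%.

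Cluster by cluster, for S and G2/M calls together, the 45-day library was mostly lower than the uninduced one and the 15-day library was not. Of 15 clusters with 50 cells or more in both, 12 had a lower called share at 45 days than with no induction. Between 15 days and no induction, 7 of 14 were lower and 7 higher. The phases differed there: S shares were lower in 9 clusters and higher in 5, and G2/M shares lower in 4 and higher in 9. Weighting 14 shared clusters by their size over all libraries gave 14.4%, 14.2% and 10.2% called, in place of 14.0%, 10.3% and 11.1%. Clusters 2 and 12 weigh on this at 15 days, where they had 71 and 52 cells; without them the equally weighted shares were 11.6%, 10.5% and 7.60%.

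**Figure D5:**
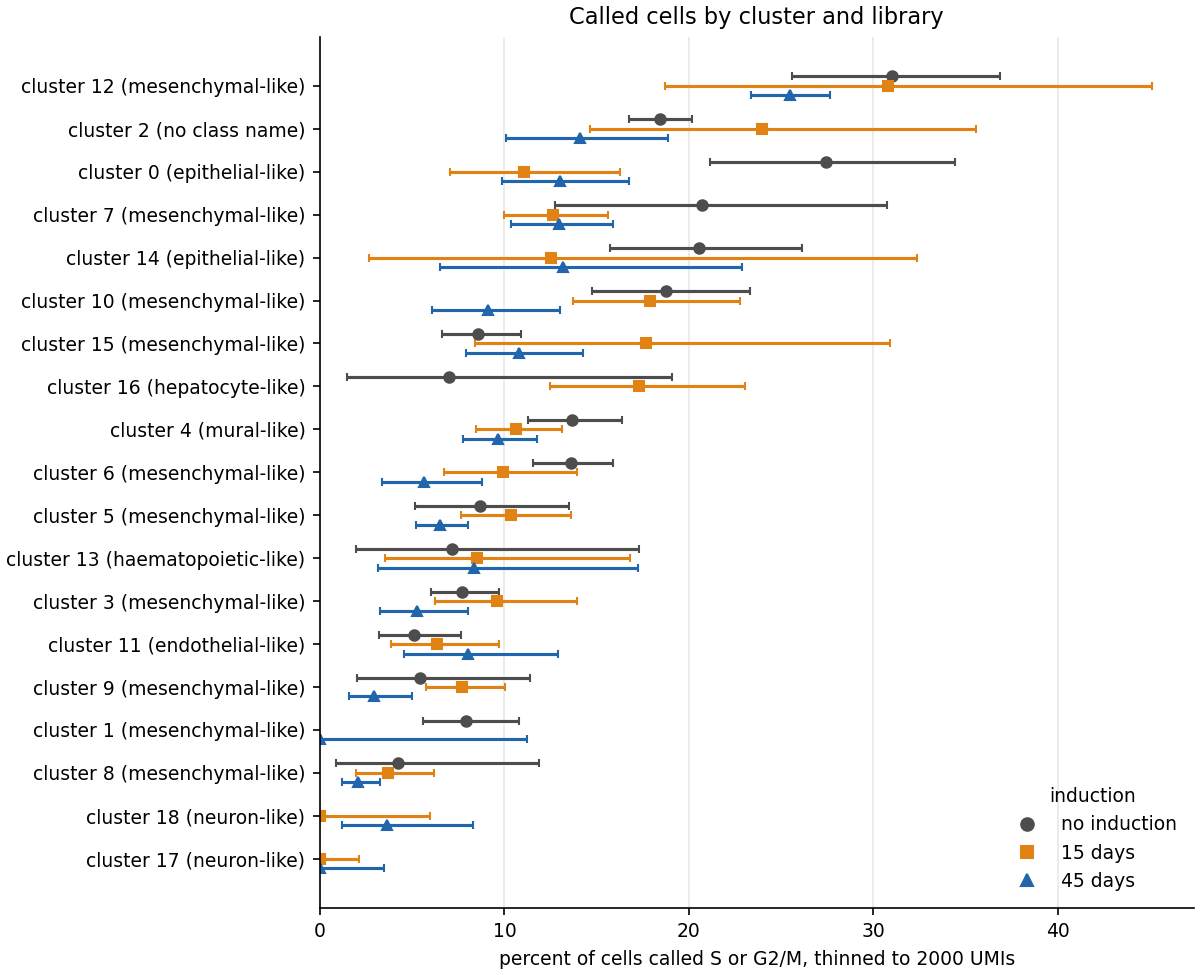
Percent of cells called S or G2/M after thinning to 2000 UMIs, for each cluster and library with at least 20 cells, with exact binomial intervals. Cluster 12 stands at the top near 25 to 31 percent and the neuron-like clusters 17 and 18 at the bottom, and blue triangles (45 days) are mostly left of black circles (no induction).

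Neuron-like cells, found in both induced libraries, had the lowest levels of G2/M members of the 5 named classes described. At 15 days 0 of 234 cells were called S or G2/M, which allows a share of up to 1.28% (3 cells of 234), and at 45 days 5 of 242 were (2.07%, 0.674 to 4.76). Without thinning, 46.2% and 29.8% of these cells met a call, most of them the S call (40.6% and 25.2%). G2/M members summed to 47.7 CPM at 15 days and 70.2 CPM at 45 days, 7.09% and 8.54% of the level of the whole library. TOP2A stood at 3.05 and 6.45 CPM and MKI67 at 1.72 and 1.70 CPM, against 101 and 123 and 42.0 and 43.4 CPM over all cells. KIF20A had 0 UMIs at 15 days and BUB1, a spindle checkpoint kinase, 0 at 45 days.

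The S members were less depleted, at 165 and 224 CPM, or 40.6% and 47.7% of the library level. RRM1 was the highest of them: at 49.3 and 49.2 CPM it was higher in neuron-like cells than over all cells (34.2 and 36.5 CPM), while its partner RRM2 was at 0.573 and 0.679 CPM, with 3 and 2 UMIs. The subunits of 1 enzyme were thus at opposite ends in these cells. MCM6 stood at 13.9 and 13.2 CPM and MCM7 at 14.3 and 28.2 CPM. Median depth was 18633 UMIs at 15 days and 6748 UMIs at 45 days, and most cells were in the NEFL-rich cluster 17 at 15 days and the NEUROD1-rich cluster 18 at 45 days. All 5 called cells lay in cluster 18, with a median of 5 neuron markers against 6.5 in the others there; over both libraries called neuron-like cells had a median of 4 mesenchymal markers and uncalled ones of 0. Whether they were mixed droplets was not tested.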

How the data were processed

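Libraries were made with 10x Genomics 3′ chemistry (v3), per the labels' protocols. The authors deposited raw UMI counts per gene and barcode, made with Cell Ranger 3.0.0 on GRCh38 per the submitters' processing notes (the file headers give software version 3.0.1); the annotation is not given in the sources used here. Barcodes with at least 1000 UMIs, 500 genes and no more than 20% of UMIs from mitochondrial genes entered, and likely doublets (0.8% per 1000 barcodes, by 30 neighbours among simulated doublets) were removed: 725, 253 and 831 cells. Counts were summed per library or class and scaled to total UMIs (CPM). Cells were clustered with scanpy 1.11.5 (2000 variable genes, 30 components, Leiden resolution 1.0), without 953 cycle genes: 179 by name and 774 whose log value correlated over 0.1 with the summed members, 7 markers among them. A cluster was named on at least 3 markers and 1 in 3 of a list, each 2-fold above other cells and in 10% of the cluster's cells. Clusters left over were compared with named clusters that were neither mesenchymal nor mural. A name was withheld where another list had more genes than the cluster's own list among its 10 leading genes. Cluster 2 was left unnamed for this reason: it met 6 of 15 mesenchymal markers, but 0 of them and 1 gene of another list were among those 10. The naming rule was chosen after seeing the data. Intervals are exact Poisson, Clopper-Pearson or conditional binomial at 95%; a count of 0 allows 3 counts. With 1 library per group there is no test, and features enter a count from 200 UMIs over the compared sums. The thinning, calls and ratios were tested on simulated data. Simulated S cells carried S members well above the 1931 to 2107 CPM of cells called S here. They therefore do not show how many S cells the call misses in these data.

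The members and gene lists were chosen with earlier results of these data known. Members named in full (MCM2, PCNA, TYMS, RRM2, MKI67, TOP2A, CDK1, CCNB1, UBE2C and CDC20), the 3 highest and lowest ratios of a comparison and the 2 highest and lowest of each other list followed a written rule; other names were chosen after their values were seen. The cell type lists were endothelial, mural, mesenchymal, epithelial, neuron, haematopoietic, hepatocyte, glia, chondrocyte and skeletal muscle; the last 3 named no cluster, and haematopoietic-like (242 cells) and hepatocyte-like (345 cells) clusters were not described. Alternatives were other depths of thinning, other numbers of members for a call, a cell cycle score, doublets kept, other scalings and filters, and other clusterings.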

Additional observations from a re-analysis of the deposited data

Results flagged for a closer look

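Under the same contrast, the ratios of the summed CPM of the members had opposite signs in different cell classes, with counting intervals clear of 0 on both sides. Each class was 1 library per group, so the difference between classes was not tested.

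At 15 days against no induction, the log2 ratio of the S members was 0.10 in mesenchymal-like cells and −1.11 in epithelial-like cells. That of the G2/M members was 0.83 in endothelial-like cells and −0.50 in epithelial-like cells. At 45 days against no induction, the S members were at 0.46 in endothelial-like and −0.77 in epithelial-like cells, and the G2/M members at 0.093 in mesenchymal-like and −0.25 in mural-like cells. At 45 against 15 days, the S members were at 0.38 in endothelial-like and −0.12 in mural-like cells, and the G2/M members at 0.48 in epithelial-like and −0.81 in endothelial-like cells. The signs are those by total UMIs. The median gene of mesenchymal-like cells was at 0.22 at 15 days and 0.20 at 45 days against no induction. Both mesenchymal-like values above therefore lie below the median gene of the class, and relative to it the contrast of signs is lost there. They also depend on leaving out the unnamed cluster 2, which met 6 of 15 mesenchymal markers. Its members stood at 562 CPM (S) and 1148 CPM (G2/M) with no induction, where it held 2052 cells, against 74 cells at 15 days and 268 at 45 days. With its UMIs added to the class, both signs turn negative. The endothelial-like sums and the 15-day epithelial-like sum rest on few cells, as given with their values.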

How the results depend on the processing

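No paired analysis was possible because each group had 1 library, and for the same reason no replicate could be left out. Equal makeup, cluster 2 added to the mesenchymal-like class, another seed, and the shares without neuron-like cells were chosen after seeing the data. Over the main results, 135 values under alternatives stayed within their counting interval (or within 1.5 times, for counts), 122 moved, and 0 changed sign where the counting interval was clear of 0. Among single members 4 ratios to no induction with such an interval changed sign, by median of ratios: MCM7 at 15 days (−0.12) and MCM3 (−0.061), MKI67 (−0.068) and AURKB (−0.013) at 45 days. Keeping all barcodes, a minimum of 50 UMIs, resolution 2.0 and another seed moved none of them. The cause was not tested. Depth limits the calls: a cell of 2000 UMIs with no member UMI is not shown to be out of cycle.

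Values below are percent called, for no induction, 15 days and 45 days in that order unless named. With 2 distinct members for a call, G2/M was 11.7, 9.40 and 9.46 and S was 8.62, 6.61 and 8.64 over all cells; classes were 10.7, 13.0 and 13.9 (endothelial-like), 17.7, 16.2 and 18.6 (mesenchymal-like), 18.1, 14.8 and 15.6 (mural-like), 34.3 and 19.7 (epithelial-like, no induction and 45 days) and 5.98 and 12 (neuron-like, 15 and 45 days). With 4 distinct members, G2/M was 7.60, 5.96 and 6.09 and S was 3.39, 2.18 and 2.57; classes were 9.46, 8.57 and 9.18 (mesenchymal-like), 8.40 and 7.28 (mural-like, 15 and 45 days), 16.1 and 10.0 (epithelial-like, no induction and 45 days), and at 45 days 4.28 (endothelial-like) and 0.413 (neuron-like). By the cell cycle score, G2/M was 14.7, 9.44 and 11.7 and S was 29.8, 27.0 and 31.8; classes were 25.7, 22.7 and 26.7 (endothelial-like), 54.6, 33.6 and 41.0 (epithelial-like), 41.8, 38.4 and 45.1 (mesenchymal-like), 42.4, 35.3 and 39.9 (mural-like) and 22.2 and 29.8 (neuron-like).

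Not thinned, over all kept cells, G2/M was 13.3, 11.8 and 11.2 and S was 10.9, 12.9 and 11.5; classes were 18.3, 22.0 and 19 (endothelial-like), 45.4, 18.2 and 27.0 (epithelial-like), 20.4, 21.6 and 22.7 (mesenchymal-like), 24.6, 25.4 and 19.8 (mural-like) and 37.6 and 24.2 (neuron-like). Thinned to 4000 UMIs, G2/M was 13.2, 9.42 and 10.4 and S was 9.51, 5.70 and 8.12; classes were 9.88 and 13.9 (endothelial-like, no induction and 15 days), 35.1 and 19.4 (epithelial-like, no induction and 45 days), 19.6, 14.5 and 19.6 (mesenchymal-like), 18.6, 15.0 and 14.1 (mural-like) and 3.66 and 6.99 (neuron-like). Classes from each cell's own markers gave 14.3 (mesenchymal-like) and 9.09 (mural-like) with no induction. Cycle genes kept in clustering gave 31.9, 25.9 and 19.5 (mural-like) and 7.39 and 10.5 (mesenchymal-like, 15 and 45 days); a mural-like cluster was then led by RRM2. With doublets kept, G2/M was 7.88 at 45 days, and mesenchymal-like cells were at 13.7 with no induction and 12.8 at 45 days. Equal makeup gave 10.8 for G2/M at 15 days and 3.48 for S at 45 days, and cluster 2 put uninduced mesenchymal-like cells at 14.1.

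The log2 ratios follow for 15 days against no induction, 45 days against no induction and 45 against 15 days. By median of ratios they were −0.63, −0.26 and 0.37 (G2/M) and −0.47, −0.18 and 0.29 (S), with 16 and 2 members lower and 1 higher. Without neuron-like cells they were −0.21, −0.0097 and 0.20 (G2/M) and −0.11, 0.038 and 0.15 (S), with 0 members lower at 15 days. At 2-fold, 0 members were lower at 15 days. For both of these counts no share over all genes is given.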
